A study of Mus musculus with 9 samples.

Results

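The mitochondrial ribosomal protein genes, named Mrpl and Mrps in the mouse, were followed across 3 groups of CD4+ T cells. All genes of the deposited table whose symbol begins with Mrpl or Mrps and a number were taken, pseudogenes left out, which gave 76 of the 14912 genes listed. Each of the 76 passed the filter on low values, which asks for a level of 5 or more in 3 or more libraries. The smallest number of counts behind any of them in any library was 11.

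All libraries came from the strain B6.Cg-Foxp3tm2(EGFP)Tch/J, hemizygous for Foxp3<tm2Tch>, in which an eGFP reporter marks cells that express Foxp3, the transcription factor of regulatory T (Treg) cells. Cells negative for eGFP, taken as CD4+ T cells on day 0 with no treatment, formed the starting group (day 0, n = 3). TGFβ-iTreg cells were eGFP-positive CD4+ T cells cultured for 5 days with antibodies against CD3 and CD28 (1 µg/ml each), with TGFβ at 10 ng/ml and with IL-2 at 300 U/ml (n = 3). The mTO-iTreg cells were eGFP-positive CD4+ T cells from day 5 of co-culture with murine colorectal cancer organoids, with both antibodies at unchanged dose, IL-2 at 20 U/ml and no TGFβ listed (n = 3). Both iTreg groups thus shared the antibody stimulation and the days in culture, and differed from each other in TGFβ, in the dose of IL-2 and in the organoids. The labels do not say whether the 3 libraries of a group came from separate mice or cultures, so the p-values measure the spread between these libraries, which may be technical.

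Mitochondria keep their own ribosome, which translates the few mRNAs of mitochondrial DNA, all of them encoding subunits of the respiratory chain and of ATP synthase. Its ribosomal RNAs are transcribed from mitochondrial DNA, while its proteins are encoded in the nucleus, made in the cytosol and imported. Activated T cells are known for enlarging their mitochondria and raising mitochondrial translation. The protein names follow the 2 parts of the ribosome: the large subunit, which joins amino acids, and the small subunit, which reads the mRNA. Of the 76 genes, 49 encode large-subunit proteins, among them Mrps30 and Mrps18a in spite of their names, and 26 encode small-subunit proteins. Mrps36 carries the name but encodes a part of the 2-oxoglutarate dehydrogenase complex. The genes lie on 17 chromosomes.

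Promoters of this family are known for binding sites of NRF1 and of the ETS factor GABP, so the RefSeq promoter windows of mouse build GRCm38.p6, from 250 bases before to 50 bases after each start, were searched on both strands. A window was found for 67 of the 76 genes, all but Mrpl4, Mrpl13, Mrpl15, Mrpl19, Mrpl38, Mrpl54, Mrps28, Mrps34 and Mrps35. The letters CCGGAAG, the ETS core, stood in 32.9% of 73 windows of these genes, against 8.86% of all 32851 windows and 18.6% of the 10550 windows of genes tested. The letters GCGCANGCG, an NRF1 core with one free base, stood in 20.5% of the members' windows, against 6.25% of all and 14% of tested genes. GCGCATGC, the NRF1 core itself, which overlaps the former, stood in 11% of them, against 2.71% and 5.66%. The YY1 core AAGATGG stood in 17.8%, against 6.34% and 7.39%, and the E-box CACGTG in 9.59%, against 7.15% and 10.2%. These are letter matches, not measured sites. By the test described below, of the 24 genes with the ETS letters 3 were higher and 0 lower than on day 0 in TGFβ-iTreg cells, and 4 were higher and 3 lower in mTO-iTreg cells. Of the 15 genes with GCGCANGCG 5 were higher and 0 lower in each iTreg group. The 8 genes with GCGCATGC had 1 higher and 0 lower in TGFβ-iTreg cells, and 2 higher and 1 lower in mTO-iTreg cells. The 13 with AAGATGG had 0 called in TGFβ-iTreg cells, and 1 higher and 1 lower in mTO-iTreg cells. The 5 with CACGTG had 1 higher and 0 lower in TGFβ-iTreg cells, and 0 called in mTO-iTreg cells. Over all genes tested 9.78% were higher and 8.8% lower in TGFβ-iTreg cells, and 19.4% and 14.5% in mTO-iTreg cells. Called and uncalled genes were not compared in how often they held the letters.

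The bases just before the start of 3 genes that rose are shown, with the matched letters in capitals. Stretches cut by the same rule held no match for Mrpl32, Mrps16, Mrpl30 and Mrps6, which also rose, or for Mrps12, which fell. Not all of these stretches reached the start. That of Mrpl32 ran from 202 to 129 bases before it, that of Mrps6 from 250 to 67, and 1 of Mrps16 from 250 to 145. A stretch without a match therefore does not mean a window without one. Elsewhere in their windows Mrpl32, Mrps16, Mrpl30 and Mrps12 hold some of the letters searched, and Mrps6 holds none. Mrpl32 holds 4 matches of GCGCATGC, with first bases at -87, -85, -66 and -22 from the start. Mrpl30 holds GCGCANGCG at -102 and -82, and Mrps16 holds CCGGAAG at -74 and 24. Mrpl45 (GRCm38.p6 chr11:97315516-97315715, plus strand) holds 2 copies of GCGCANGCG, Mrpl43 (chr19:45006443-45006557, minus strand) holds 2 copies of CCGGAAG, and Mrpl34 (chr8:71464726-71464925, plus strand) holds 1 copy of it.
Mrpl45: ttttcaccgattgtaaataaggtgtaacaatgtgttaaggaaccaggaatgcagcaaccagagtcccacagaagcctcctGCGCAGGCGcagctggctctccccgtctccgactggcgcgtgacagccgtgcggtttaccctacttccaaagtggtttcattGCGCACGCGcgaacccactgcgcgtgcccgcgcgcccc
Mrpl43: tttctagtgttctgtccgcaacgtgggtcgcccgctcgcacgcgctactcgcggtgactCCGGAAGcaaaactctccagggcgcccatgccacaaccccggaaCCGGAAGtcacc
Mrpl34: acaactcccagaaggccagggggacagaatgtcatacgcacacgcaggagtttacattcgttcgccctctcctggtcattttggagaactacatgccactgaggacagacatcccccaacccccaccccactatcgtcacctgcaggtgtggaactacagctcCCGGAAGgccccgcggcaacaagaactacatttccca

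The libraries held between 2078223 and 9944952 counts, and the values below are normalized counts, scaled for each library's size but not for gene length, so levels are compared between groups and not between genes. The shallowest libraries were day 0 replicate 2 and TGFβ-iTreg replicate 1, in which a single count is worth 2.69 and 2.46 normalized counts. The T-cell marker genes found (7 of 10 listed) were present in every library, with a summed level of 26449 to 28732 on day 0, 16379 to 17934 in TGFβ-iTreg and 19044 to 23154 in mTO-iTreg cells. Foxp3 itself was at 0 to 8.77 on day 0, at 14.8 to 19.7 after TGFβ and at 37.2 to 81 after co-culture, lowest in the eGFP-negative group. Epithelial markers (7 of 13 in the table) summed to 13.7 to 18.8, 138 to 153 and 34.1 to 146, with Epcam the highest in every library but for a tie with Cdh1 in day 0 replicate 1. Elf3 reached 31.9 in mTO-iTreg replicate 3 and 14.8 in TGFβ-iTreg replicate 1, Cldn4 reached 11.9 in TGFβ-iTreg replicate 3, and Krt18, Vil1 and Lgr5 were at 4.65 or less. Myeloid and antigen-presenting markers (10 of 12) summed to 753 to 5767 on day 0, highest in replicate 3, to 154 to 343 in TGFβ-iTreg and to 417 to 649 in mTO-iTreg cells. B-cell markers (4 of 6) summed to at most 104 in any library. CD8 and NK markers (5 of 6) summed to 341 to 721, 332 to 502 and 720 to 870. Within them Klrd1 was at 199 to 444, 57 to 118 and 2.66 to 4.77, while Nkg7 was at 10.8 to 96, 125 to 251 and 599 to 740. The part of these cell types in the results was not tested. In bulk samples fewer cells of a type and less RNA per cell cannot be told apart. The mTO-iTreg libraries carry codes of another form than the other 6, so anything tied to that cannot be told apart from the group.

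The summed level of the 76 genes was 16305 to 17212 on day 0, 20286 to 20702 in TGFβ-iTreg and 19081 to 20179 in mTO-iTreg cells. Every iTreg library was above every day 0 library, while the iTreg groups came close to each other without overlapping. The sum, and so the total behind the share below, includes Mrps36, which is not part of the ribosome. The large-subunit sums of the iTreg groups overlapped, at 13476 to 13968 in TGFβ-iTreg and 13354 to 14104 in mTO-iTreg cells. The means were 16611 ± 520 (SD, n = 3), 20427 ± 239 and 19542 ± 570, or 1.23 and 1.18 times the day 0 level. The large-subunit genes summed to 11045 ± 179 for day 0, 13775 ± 263 after TGFβ and 13651 ± 399 after co-culture. The small-subunit genes summed to 5177 ± 252, 6132 ± 248 and 5470 ± 130. The ratio to day 0 was 1.25 and 1.24 for the large subunit in TGFβ-iTreg and mTO-iTreg cells, and 1.18 and 1.06 for the small subunit. The small-subunit share of the summed level was 30.6% to 31.8% on day 0, 28.8% to 30.8% in TGFβ-iTreg and 27.8% to 28.2% in mTO-iTreg cells. The mTO-iTreg libraries had the lowest shares, with no overlap with either of the other groups. Their small-subunit sums themselves, 5387 to 5619, overlapped those of day 0, 4998 to 5465. Sums weigh highly read genes most. Gene by gene, the median log2 change from day 0 was 0.23 and 0.08 for the small subunit in TGFβ-iTreg and mTO-iTreg cells. For the large subunit it was 0.29 and 0.23. These sums are descriptions, with no test.

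**Figure D1:**
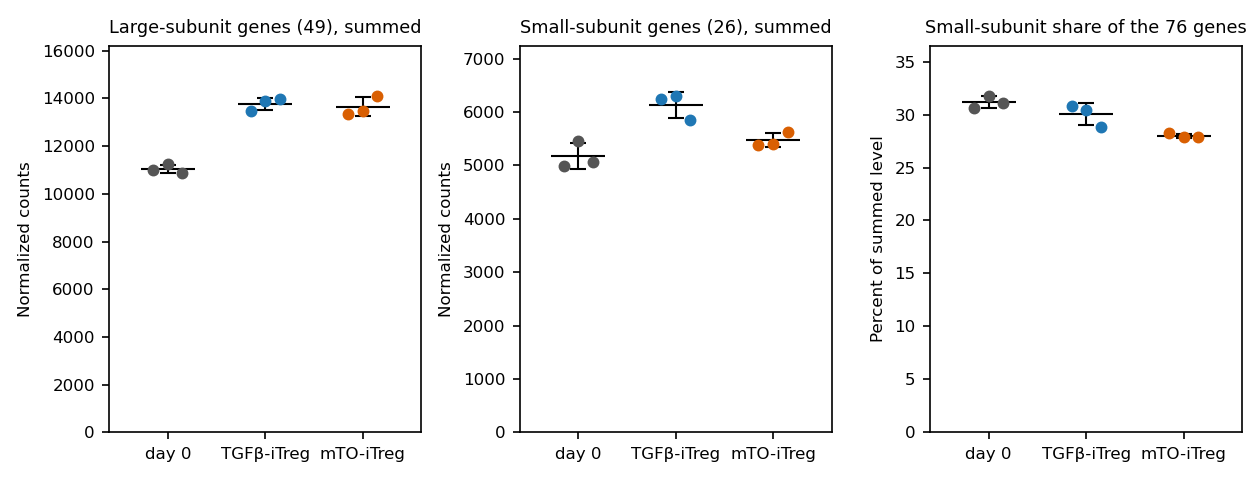
Summed normalized counts of the large-subunit and the small-subunit genes (left and middle) and the small-subunit share of the summed level in percent (right), 1 point per library, with the group mean and SD (n = 3). Large-subunit sums are higher in all iTreg libraries than on day 0, and the small-subunit share is lowest in the 3 mTO-iTreg libraries, at 27.8% to 28.2%.

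Single genes were compared with limma's moderated test on log2(normalized count + 1) over all 10983 genes that passed the filter, with Benjamini-Hochberg adjustment, and a gene was called at an adjusted p under 0.05. Changes below are on that log2 scale, with their standard errors. Of the 76 genes, 30 were called in at least 1 of the 3 comparisons and 46 in none. No gene was called up in one iTreg group and down in the other against day 0. Both comparisons with day 0 use the same 3 day 0 libraries, so a gene with an unusual day 0 level moves in both.

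**Figure D2:**
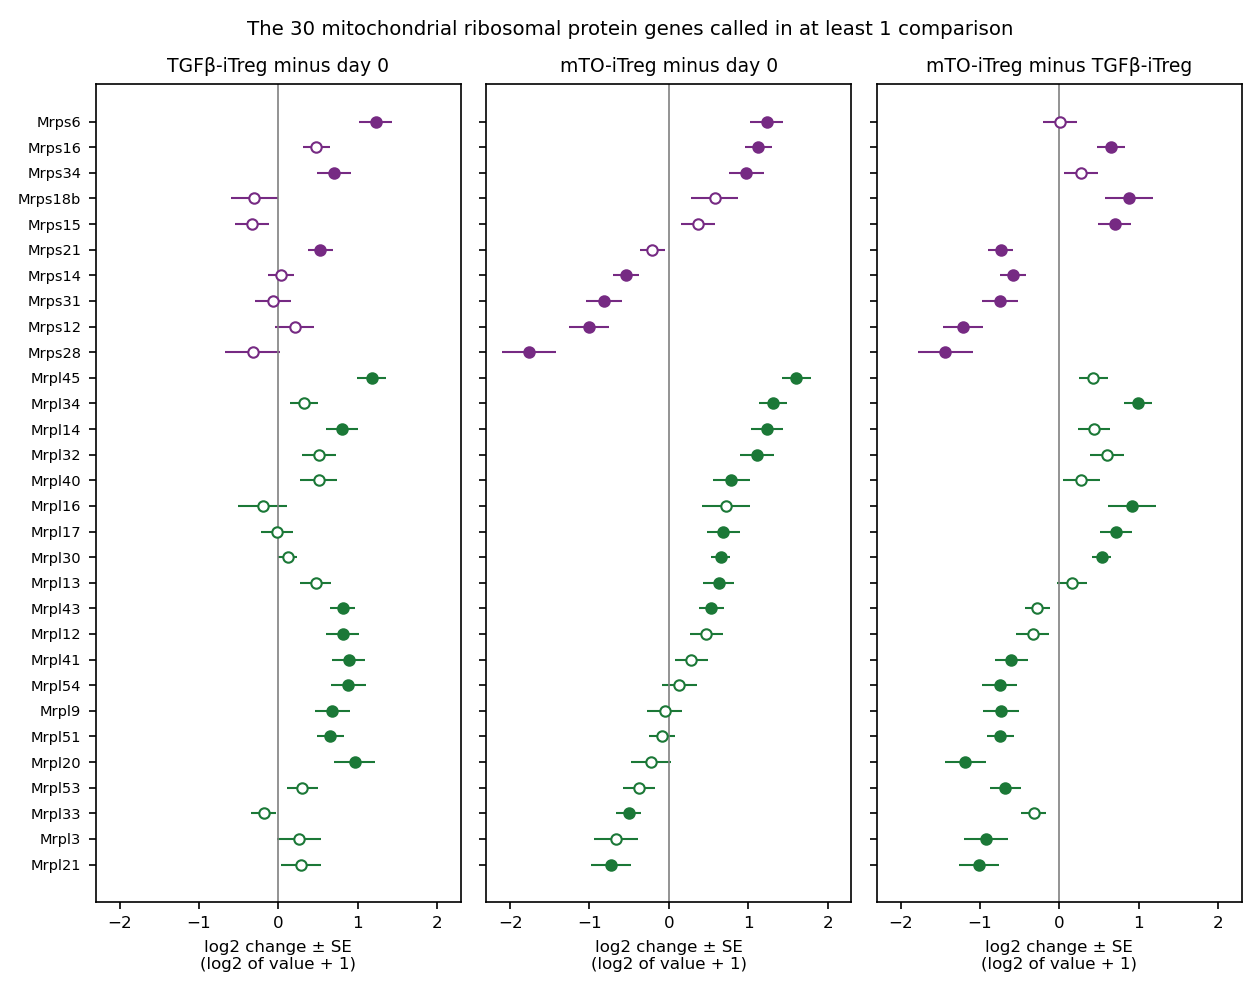
Change in log2(normalized count + 1) with its standard error for the 30 genes called in at least 1 comparison, small-subunit genes at the top (purple) and large-subunit genes below (green). Filled points are called, open points are not. Against day 0 the called genes of TGFβ-iTreg cells all lie to the right of 0, while mTO-iTreg cells have 12 called to the right and 6 to the left.

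In TGFβ-iTreg cells 12 of the 76 genes were higher than on day 0 (15.8%; over all genes tested 9.78% were called higher) and 0 were lower (8.8% over all genes; 18.6% in either direction). At an unadjusted p under 0.05 limma gave 1 lower gene, and limma-voom on recovered counts called 9 higher and 0 lower. The median change of the 76 was 0.28, against -0.02 over all genes tested, and 57 of the 76 changes were positive. In 26 of them (34.2%) all 3 TGFβ-iTreg libraries were above all day 0 libraries, against 18% of all genes, and in 3 (3.95%) they were all below, against 17.8%. The 12 genes were 9 of the large subunit (18.4% of its genes) and 3 of the small subunit (11.5%), against 9.78% of all genes tested.

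**Figure D3:**
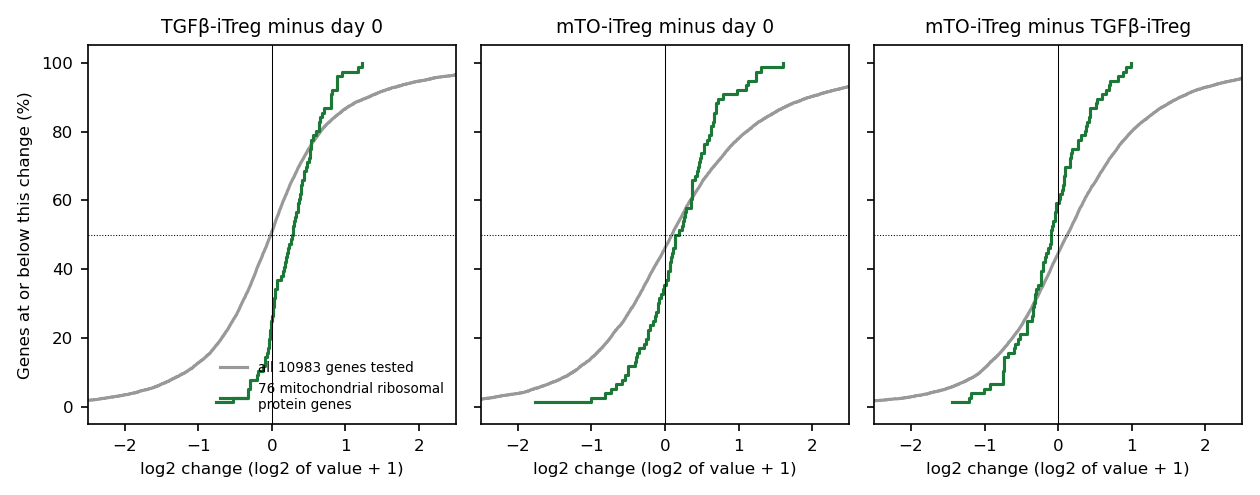
Percent of genes at or below a given change in log2(normalized count + 1), for the 76 genes (green) and all 10983 genes tested (grey), in each comparison. The 76 lie to the right of all genes between TGFβ-iTreg and day 0 in the lower part of the plot. The medians there are 0.28 and -0.02. The 76 have a narrower spread in all 3 comparisons. Their standard errors are also smaller, at a median of 0.23 against 0.36 over all genes tested. The part of this in the spread and in the shares called was not tested.

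Higher in both iTreg groups than on day 0 were 5 of the 76 genes, Mrpl45, Mrps6, Mrpl14, Mrpl43 and Mrps34, against 6.05% of all genes tested, and 0 were lower in both, against 4.22%. A share of 5 in 76 is close to that background. Mrpl45 encodes the protein that ties the ribosome to the inner mitochondrial membrane at the exit of the peptide tunnel. Its level was 168, 148 and 135 on day 0, 312, 319 and 394 in TGFβ-iTreg, and 483, 399 and 494 in mTO-iTreg cells. The 3 groups did not overlap, and the order was day 0, TGFβ-iTreg, mTO-iTreg. The change from day 0 was 1.18 ± 0.18 (limma, adjusted p = 0.00067) in TGFβ-iTreg and 1.60 ± 0.18 (adjusted p = 2.2e-05) in mTO-iTreg cells, and the difference between the iTreg groups, 0.42 ± 0.18, was not called (adjusted p = 0.1).

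Mrps6 encodes a small-subunit protein with a bacterial counterpart. It stood at 191, 121 and 128 on day 0, at 366, 290 and 360.2 in TGFβ-iTreg and at 351, 357 and 309 in mTO-iTreg cells. All 6 iTreg libraries were above the day 0 libraries and the iTreg groups overlapped. The change was 1.23 ± 0.21 in both (limma, adjusted p = 0.0014 and 0.00054). Mrps6 shares exon positions on the same strand with Slc5a3, listed at 8.77 to 78.4, so reads of the pair may be split between them. Mrpl43, a large-subunit protein found in mitochondrial ribosomes only, was at 270.2, 328 and 341, then at 556, 549 and 536, and in mTO-iTreg cells at 458, 407 and 493. TGFβ-iTreg cells were the highest, mTO-iTreg cells lay between, and no groups overlapped. The changes were 0.81 ± 0.16 (adjusted p = 0.0029) and 0.53 ± 0.16 (adjusted p = 0.017). The exons of Mrpl43 overlap those of Twnk on the other strand, listed under its older symbol Peo1 at 7.38 to 38.9, and strand handling is not given in the sources used here. Of the other members described, Mrpl33, Mrpl51 and Mrpl53 overlap an exon of another annotated gene on the same strand. Mrpl9, Mrpl10, Mrpl12, Mrpl13, Mrpl21, Mrpl47, Mrpl53, Mrps18b and Mrps30 overlap one on the other strand, and the reads of all of these are uncertain in the same way.

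Mrpl14 encodes a protein at the face where the subunits meet. It was at 314, 274 and 463 on day 0, 568, 625 and 592 in TGFβ-iTreg, and 648, 946 and 854 in mTO-iTreg cells, again with no overlap between groups. It rose by 0.80 ± 0.20 (adjusted p = 0.014) and by 1.24 ± 0.20 (adjusted p = 0.00036). Mrps34, of the small subunit, is a gene mutated in Leigh syndrome. Its level was 121, 121 and 120.3 on day 0 against 204, 185 and 204 in TGFβ-iTreg and 216, 202 and 311 in mTO-iTreg cells, with mTO-iTreg replicate 3 the highest. It rose by 0.70 ± 0.22 (adjusted p = 0.037) and 0.98 ± 0.22 (adjusted p = 0.0033).

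**Figure D4:**
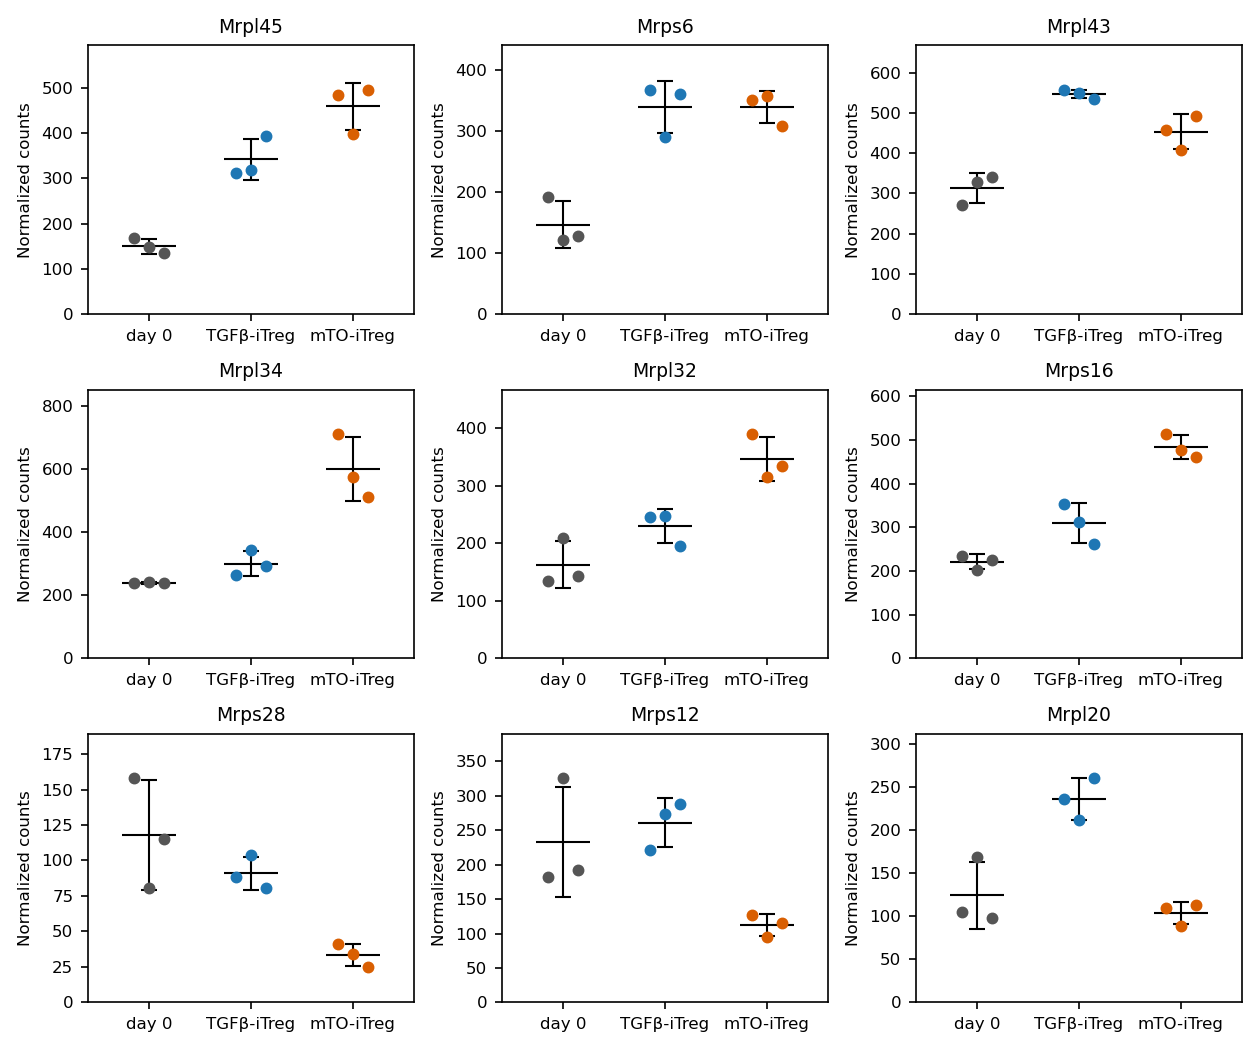
Normalized counts of 9 genes in each library, with the group mean and SD (n = 3). Mrpl45, Mrps6 and Mrpl43 (top) are higher in both iTreg groups than on day 0, Mrpl34, Mrpl32 and Mrps16 (middle) are highest in mTO-iTreg cells, Mrps28 and Mrps12 are lowest in mTO-iTreg cells, and Mrpl20 is highest in TGFβ-iTreg cells.

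Called higher than on day 0 in TGFβ-iTreg but not in mTO-iTreg cells were 7 genes, Mrpl20, Mrpl41, Mrpl54, Mrpl12, Mrpl9, Mrpl51 and Mrps21. For 6 of them, all but Mrpl12, the difference between the iTreg groups was itself called. Mrpl20, a large-subunit protein with a bacterial counterpart, was at 105, 169 and 98.1 on day 0, 236, 212 and 260.4 in TGFβ-iTreg, and 109, 88.7 and 113 in mTO-iTreg cells. TGFβ-iTreg cells stood above both other groups, which overlapped. The change was 0.96 ± 0.26 in TGFβ-iTreg cells (limma, adjusted p = 0.019), and mTO-iTreg cells were lower than these by 1.18 (log2 change -1.18 ± 0.26, adjusted p = 0.004). Mrps21 stood at 547, 634 and 582, then 929.7, 757 and 865, and at 488, 435 and 614 in mTO-iTreg cells. The TGFβ-iTreg libraries were the highest 3 of the 9, with a change of 0.53 ± 0.16 from day 0 (adjusted p = 0.033), and mTO-iTreg minus TGFβ-iTreg was -0.74 ± 0.16 (adjusted p = 0.0037).

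Mrpl51 had 377, 387 and 383 on day 0, 598, 664 and 553 in TGFβ-iTreg, and 362, 297 and 433 in mTO-iTreg cells, a change of 0.66 ± 0.17 (adjusted p = 0.015) and a difference between the iTreg groups of -0.74 ± 0.17 (adjusted p = 0.0051). Only the TGFβ-iTreg libraries were set apart. Mrpl41, Mrpl54 and Mrpl9 had changes of 0.88, 0.88 and 0.68 in TGFβ-iTreg cells (adjusted p = 0.0099, 0.013 and 0.049) and differences of -0.61, -0.75 and -0.74 between the iTreg groups (adjusted p = 0.046, 0.021 and 0.027). Mrpl12 encodes the stalk protein that recruits translation factors to the ribosome. It was at 147, 169 and 135 on day 0, 239, 273 and 281 in TGFβ-iTreg, and 229, 164 and 239.8 in mTO-iTreg cells. It rose by 0.81 ± 0.21 in the former (adjusted p = 0.017), while its change of 0.47 ± 0.21 in the latter was not called (adjusted p = 0.1).

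Of the 12 calls in TGFβ-iTreg cells, those of Mrpl43, Mrpl45 and Mrps6 were kept under all 23 alternative settings. Leaving out 1 library ended the other calls except that of Mrpl41: Mrpl12 (adjusted p = 0.065 without TGFβ-iTreg replicate 3), Mrpl14 (0.057 without day 0 replicate 2), Mrpl20 (0.077 without TGFβ-iTreg replicate 3), Mrpl51 (0.066 without TGFβ-iTreg replicate 2), Mrpl54 (0.054 without TGFβ-iTreg replicate 1), Mrpl9 (0.18 without TGFβ-iTreg replicate 3), Mrps21 (0.12 without TGFβ-iTreg replicate 1) and Mrps34 (0.1 without TGFβ-iTreg replicate 3). Each value is the highest over the single libraries left out. The Mrpl9 call ended on leaving out any of 7 libraries and under 15 of the 23 alternatives. That of Mrps34 ended on leaving out any of 6 libraries. Without day 0 replicate 3, which had the most myeloid marker RNA, 8 of the 76 genes were called higher, against 9.23% of all genes tested. Without day 0 replicate 1 or any 1 TGFβ-iTreg library the count was 7. Over all genes tested 7.77% were called higher without day 0 replicate 1, and 6.28% to 6.6% without a TGFβ-iTreg library.

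In mTO-iTreg cells 12 of the 76 genes were higher than on day 0 (15.8%, against 19.4% of all genes tested) and 6 were lower (7.89%, against 14.5%; in either direction 33.9% of all genes were called). Both shares were below the background, and the median change was 0.17 against 0.09 over all genes, a gap that ranged from 0.0707 to 0.169 under the scalings and tools tried. In 24 genes (31.6%) the mTO-iTreg libraries were all above day 0, against 25.8% of all genes, and in 10 (13.2%) all below, against 20.3%. Beside the 5 genes above, 7 were called higher in mTO-iTreg and not in TGFβ-iTreg cells: Mrpl34, Mrps16, Mrpl32, Mrpl40, Mrpl17, Mrpl30 and Mrpl13.

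Mrpl34 encodes a large-subunit protein with a bacterial counterpart. Its level was 239, 242 and 238 on day 0, 266, 345 and 293 in TGFβ-iTreg, and 711, 576 and 513 in mTO-iTreg cells. The mTO-iTreg libraries stood well above the rest, by 1.31 ± 0.18 against day 0 (limma, adjusted p = 8.4e-05) and 0.99 ± 0.18 against TGFβ-iTreg (adjusted p = 0.0011). Mrps16, whose mutation in humans causes a deficiency of the respiratory chain, was at 235, 202 and 226, then 354, 313 and 262, and at 513, 477 and 460.3 in mTO-iTreg cells. These 3 groups did not overlap, and mTO-iTreg cells were higher by 1.13 ± 0.17 than day 0 (adjusted p = 0.00023) and by 0.65 ± 0.17 than TGFβ-iTreg cells (adjusted p = 0.013). Mrpl32, whose protein is cut by a protease of the inner membrane before it joins the ribosome, was at 135, 209.7 and 143 on day 0, at 246, 247 and 195 in TGFβ-iTreg and at 389, 315 and 335 in mTO-iTreg cells. It was higher in mTO-iTreg cells than on day 0 by 1.11 ± 0.22 (adjusted p = 0.0014), and its difference from TGFβ-iTreg cells, 0.59 ± 0.22, was not called (adjusted p = 0.056).

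Mrpl30, a large-subunit protein with a bacterial counterpart, was at 947, 1000.0 and 1003 on day 0, 1114, 965 and 1134 in TGFβ-iTreg, and 1546, 1449 and 1646 in mTO-iTreg cells. Only the mTO-iTreg libraries stood apart, by 0.65 ± 0.12 from day 0 (limma, adjusted p = 0.00094) and 0.53 ± 0.12 from TGFβ-iTreg (adjusted p = 0.0053). Mrpl17, at the tunnel exit like Mrpl45, was at 228, 191 and 199 on day 0, 172, 261 and 184 in TGFβ-iTreg, and 322, 360.4 and 314 in mTO-iTreg cells. It was higher in mTO-iTreg cells by 0.69 ± 0.20 than on day 0 (adjusted p = 0.018) and by 0.71 ± 0.20 than in TGFβ-iTreg cells (adjusted p = 0.019). Mrpl40 and Mrpl13 were higher than on day 0 by 0.79 ± 0.23 (adjusted p = 0.018) and 0.63 ± 0.19 (adjusted p = 0.022).

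The 6 genes lower in mTO-iTreg cells than on day 0 were 4 of the small subunit, Mrps28, Mrps12, Mrps31 and Mrps14, and 2 of the large, Mrpl21 and Mrpl33. That was 15.4% of the small-subunit and 4.08% of the large-subunit genes, against 14.5% of all genes tested. None of the 6 was called in TGFβ-iTreg cells, and all but Mrpl33 were also lower than in these. Mrps28 was at 158, 80.6 and 115 on day 0, 88.5, 104 and 80.5 in TGFβ-iTreg, and 40.9, 34.1 and 25.2 in mTO-iTreg cells. The mTO-iTreg libraries were the lowest, with a change of -1.76 ± 0.34 from day 0 (limma, adjusted p = 0.0015) and -1.44 ± 0.34 from TGFβ-iTreg (adjusted p = 0.0076). Mrps12 encodes a protein of the decoding centre, where codons are read. It was at 182, 325 and 192 on day 0, 221, 273 and 289 in TGFβ-iTreg, and 126, 94.9 and 116 in mTO-iTreg cells. Again the mTO-iTreg libraries were the lowest, by -1.01 ± 0.25 (adjusted p = 0.007) and -1.21 ± 0.25 (adjusted p = 0.0031). Sars2, the mitochondrial seryl-tRNA synthetase gene, which has an exon within the Mrps12 promoter window, was not called in any comparison.

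Mrps31 stood at 226, 207 and 189.9 on day 0, 197, 206 and 189 in TGFβ-iTreg, and 126, 89.3 and 144 in mTO-iTreg cells. It fell by 0.81 on the log2 scale (adjusted p = 0.013), with the first 2 groups overlapping. Mrpl21, Mrps14 and Mrpl33 changed by -0.73 ± 0.25, -0.55 ± 0.16 and -0.51 ± 0.16 from day 0 (limma, adjusted p = 0.04, 0.019 and 0.024). Calls kept under all 23 alternatives were those of Mrpl14, Mrpl30, Mrpl32, Mrpl34, Mrpl45, Mrps16, Mrps34 and Mrps6 upward and of Mrps12 and Mrps28 downward. Leaving out 1 library ended the calls of Mrpl13 (adjusted p = 0.085 without mTO-iTreg replicate 1), Mrpl17 (0.058 without mTO-iTreg replicate 2), Mrpl40 (0.066 without mTO-iTreg replicate 2), Mrpl43 (0.068 without day 0 replicate 1), Mrpl21 (0.13 without day 0 replicate 1), Mrpl33 (0.066 without day 0 replicate 2) and Mrps14 (0.086 without day 0 replicate 2). Each value is the highest over the single libraries left out. The Mrpl21 call ended on leaving out any of 7 libraries and under 12 of the 23 alternatives. Without day 0 replicate 3, 11 genes were called higher and 4 lower, against 18.1% and 12.7% of all genes tested.

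Between the iTreg groups 7 of the 76 genes were higher in mTO-iTreg cells (9.21%, against 14.9% of all genes tested) and 13 were lower (17.1%, against 11.8%; in either direction 26.6% of all genes were called). The median difference was -0.09, while that of all genes was 0.13. All 3 mTO-iTreg libraries were above the TGFβ-iTreg libraries in 13 genes (17.1%, against 25.9% of all genes) and below them in 20 (26.3%, against 18.7%). The 7 higher genes were Mrpl34, Mrps16, Mrpl30 and Mrpl17, described above, and Mrpl16, Mrps18b and Mrps15. Mrpl16 was at 104, 75.3 and 74.9 on day 0, 49.2, 84.8 and 91.9 in TGFβ-iTreg, and 130.3, 137 and 147 in mTO-iTreg cells, a difference of 0.92 ± 0.30 between the iTreg groups (adjusted p = 0.039). Mrps18b and Mrps15 differed by 0.88 ± 0.30 and 0.70 ± 0.21 (adjusted p = 0.043 and 0.026). None of these 3 was called against day 0 in either iTreg group.

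The 13 lower genes were 6 that were higher in TGFβ-iTreg cells than on day 0, 5 that were lower in mTO-iTreg cells than on day 0, and Mrpl3 and Mrpl53, called against day 0 in neither. Mrpl3, a large-subunit protein with a bacterial counterpart, was at 147, 151 and 183 on day 0, 224, 178 and 174 in TGFβ-iTreg, and 95.5, 148 and 71.1 in mTO-iTreg cells. Its difference was -0.92 ± 0.27 (limma, adjusted p = 0.024), with mTO-iTreg replicate 2 within the day 0 range. Mrpl53 differed by -0.68 ± 0.20 (adjusted p = 0.021). Mrpl21 had 143, 153 and 159 in TGFβ-iTreg and 83.2, 61.4 and 81 in mTO-iTreg cells, a difference of -1.01 ± 0.25 (adjusted p = 0.01). Kept under all 23 alternatives were the higher calls of Mrpl30 and Mrpl34 and the lower calls of Mrpl20, Mrpl21, Mrpl51, Mrps12, Mrps21 and Mrps28. Without TGFβ-iTreg replicate 1, 3 genes were higher and 9 lower, against 11.2% and 9.12% of all genes tested. The calls of Mrpl16, Mrpl17, Mrps15, Mrps16, Mrps18b, Mrpl3, Mrpl9, Mrpl41, Mrpl53, Mrpl54, Mrps14 and Mrps31 each ended without some single library, at adjusted p = 0.15, 0.078, 0.11, 0.061, 0.11, 0.094, 0.11, 0.14, 0.098, 0.079, 0.064 and 0.091 at the highest. The highest value came without TGFβ-iTreg replicate 1 for Mrpl16, Mrpl17, Mrps15 and Mrpl54. It came without TGFβ-iTreg replicate 2 for Mrps18b and replicate 3 for Mrps16, Mrpl9, Mrpl41 and Mrpl53. It came without mTO-iTreg replicate 1 for Mrps14, replicate 2 for Mrps31 and replicate 3 for Mrpl3. Only the Mrps16 call hung on 1 library. The others ended on leaving out any of 2 to 6 libraries, with 6 for Mrpl41 and Mrps18b.

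Among the other genes of the family, 5 differed by less than 0.1 in all 3 comparisons, Mrpl10, Mrpl42, Mrpl47, Mrps23 and Mrps30, picked after their values were seen. Mrpl10 for instance had changes of 0.01, 0.07 and 0.06. Mrpl44, a large-subunit protein related to RNases, was at 93, 86 and 103 on day 0, 103, 105 and 80.5 in TGFβ-iTreg, and 136, 129.7 and 145 in mTO-iTreg cells. The mTO-iTreg libraries were the highest, but the change of 0.54 ± 0.25 was not called (limma, adjusted p = 0.11). Mrps33 had changes of 0.23 and 0.10, and Mrps36, the 2-oxoglutarate dehydrogenase component, of 0.44 and 0.13 from day 0, none of them called. The median coefficient of variation between the libraries of a group was 14.9% for day 0, 13.3% after TGFβ and 15.3% after co-culture, and this spread limits which changes could be called.

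By position in the ribosome, 1 of the 3 stalk genes, Mrpl12, was higher than on day 0 in TGFβ-iTreg cells, and 0 were higher or lower after co-culture. The 6 genes at the tunnel exit had 1 higher gene in TGFβ-iTreg cells, Mrpl45, and 2 in mTO-iTreg cells, Mrpl45 and Mrpl17, with a median of 0.35 in the latter. The 7 genes of the central protuberance had 0 and 1, the latter Mrpl40. Of the 46 genes with a bacterial counterpart 6 were higher (13%, against 9.78% of all genes) and 0 lower in TGFβ-iTreg cells, and 8 were higher (17.4%, against 19.4%) and 5 lower (10.9%, against 14.5%) in mTO-iTreg cells. Of the 29 found in mitochondrial ribosomes only, 6 (20.7%) were higher and 0 lower in TGFβ-iTreg cells, and 4 (13.8%) were higher and 1 (3.45%) lower in mTO-iTreg cells, against the same shares of all genes. The medians of these classes were 0.27 and 0.29 in TGFβ-iTreg cells, and 0.15 and 0.23 after co-culture. No test between these classes was made.

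The ribosome also holds proteins under other gene names, of which 6 were followed. Ict1, the older symbol of Mrpl58, is a peptidyl-tRNA hydrolase that frees stalled ribosomes. It was at 686, 419 and 616 on day 0, 703, 606 and 635 in TGFβ-iTreg, and 279.6, 296 and 310.2 in mTO-iTreg cells. The mTO-iTreg libraries were the lowest, by -0.93 ± 0.18 (limma, adjusted p = 0.0015) and -1.13 ± 0.18 (adjusted p = 0.00055). Dap3, a GTP-binding small-subunit protein, was higher in mTO-iTreg than in TGFβ-iTreg cells by 0.68 ± 0.19 (adjusted p = 0.016), a call that ended without TGFβ-iTreg replicate 2 or mTO-iTreg replicate 1 (adjusted p up to 0.059). Gadd45gip1, at the tunnel exit, was higher than on day 0 by 0.81 ± 0.24 and 0.69 ± 0.24 (adjusted p = 0.035 and 0.042), calls that were lost under 10 and 15 of the 23 alternatives. Ptcd3, Chchd1 and Aurkaip1 were not called. Mrp63, the older symbol of Mrpl57, was at 237 to 257 on day 0, 210.2 to 297 in TGFβ-iTreg and 274 to 337 in mTO-iTreg cells.

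Further lists covered the genes that serve the ribosome. Over all genes tested, 9.78% were called higher and 8.8% lower than on day 0 in TGFβ-iTreg cells, and 19.4% and 14.5% in mTO-iTreg cells. Between the iTreg groups 14.9% were higher and 11.8% lower in mTO-iTreg cells. These shares apply to all the lists that follow. Of 13 translation factors 0 were called in TGFβ-iTreg cells by limma (1 higher and 2 lower at an unadjusted p under 0.05, and 0 by limma-voom). In mTO-iTreg cells 1 was higher, Oxa1l, which inserts newly made proteins into the inner membrane. Oxa1l was at 474, 459.7 and 319.7 on day 0, 556, 723 and 520.2 in TGFβ-iTreg, and 1059, 712 and 1062 in mTO-iTreg cells, a change of 1.17 ± 0.21 (adjusted p = 0.00066). Of 24 assembly factors 1 was higher and 1 lower in each iTreg group against day 0. Noa1, a GTPase needed for the small subunit, was at 36.8, 102 and 82.3 on day 0, 169.7, 205 and 171 in TGFβ-iTreg, and 74.3, 44 and 53.1 in mTO-iTreg cells, with only TGFβ-iTreg cells set apart. It rose by 1.41 ± 0.37 there (adjusted p = 0.018), and mTO-iTreg minus TGFβ-iTreg was -1.68 ± 0.37 (adjusted p = 0.0047). Malsu1, which binds the Mrpl14 protein and keeps the subunits from joining too early, was higher in mTO-iTreg cells than on day 0 by 1.39 ± 0.32 (adjusted p = 0.0047). Gtpbp10, a GTPase of large-subunit assembly, was lower in TGFβ-iTreg cells (-1.33 ± 0.36, adjusted p = 0.02) and Eral1, a chaperone of the small ribosomal RNA, in mTO-iTreg cells (-0.79 ± 0.27, adjusted p = 0.037). The Malsu1 call and the called difference in Noa1 were kept under all 23 alternatives. The Noa1 call against day 0 was lost under 4 (adjusted p up to 0.071), among them without day 0 replicate 1 and without TGFβ-iTreg replicate 2 or 3. That of Gtpbp10 was lost under 4 (adjusted p up to 0.14), among them without day 0 replicate 2 and without TGFβ-iTreg replicate 1 or 3. That of Eral1 was lost under 9 (adjusted p up to 0.15), among them equal totals and leaving out day 0 replicate 2 or 3, TGFβ-iTreg replicate 2, or mTO-iTreg replicate 1 or 3.

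Of 17 mitochondrial tRNA synthetases 0 were called in TGFβ-iTreg cells (0 at an unadjusted p under 0.05, and 0 by limma-voom), and 2 were higher in mTO-iTreg cells than on day 0 and than in TGFβ-iTreg cells. These were Tars2 (0.85 ± 0.21 and 1.13 ± 0.21, limma, adjusted p = 0.0062 and 0.0014) and Lars2 (0.97 ± 0.27 and 0.96 ± 0.27, adjusted p = 0.013 and 0.018). Both Tars2 calls were kept under all 23 alternatives. The Lars2 call against day 0 ended without day 0 replicate 2 or mTO-iTreg replicate 1 (adjusted p up to 0.074), and that against TGFβ-iTreg cells without TGFβ-iTreg replicate 2 or 3 or mTO-iTreg replicate 1 (adjusted p up to 0.091). Of 4 genes of mitochondrial transcription 0 were called in any comparison (0 at an unadjusted p under 0.05, and 0 by limma-voom). Of 8 regulators tested, Myc was at 395, 398 and 305 on day 0, 922, 898 and 700.1 in TGFβ-iTreg, and 452, 586 and 415 in mTO-iTreg cells. TGFβ-iTreg cells were the highest and no groups overlapped, with a change of 1.20 ± 0.18 from day 0 in TGFβ-iTreg cells (adjusted p = 0.00056), and mTO-iTreg minus TGFβ-iTreg was -0.80 ± 0.18 (adjusted p = 0.0055). Yy1 was higher in mTO-iTreg than in TGFβ-iTreg cells by 0.72 ± 0.15 (adjusted p = 0.0036). In mTO-iTreg cells against day 0, limma called 0 of the 8 (2 higher and 1 lower at an unadjusted p under 0.05, and 0 by limma-voom), and 3 higher under equal totals. Nrf1, Gabpa and Gabpb1, the factors named with the promoters, were not called by limma as reported. Gabpb1 was 0.67 ± 0.26 above day 0 (adjusted p = 0.063) and 0.64 ± 0.26 above TGFβ-iTreg cells (adjusted p = 0.085) in mTO-iTreg cells, and was called higher under 3 and 4 of the 23 alternatives, limma-voom among the latter (adjusted p = 0.034). Gabpa was called lower in mTO-iTreg cells than on day 0 under quantile normalization (-0.83 ± 0.29, adjusted p = 0.041).

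Counts of the ribosome's own RNAs and of the mRNAs it reads are given for comparison. How fully the library method captures these RNAs was not tested, so the counts may not stand for their amounts. The mRNAs of mitochondrial DNA summed to 969750 (SD 66265, n = 3) for day 0, 484410 (SD 50046) after TGFβ and 260420 (SD 14286) after co-culture, with no overlap between groups. Of the 13 mRNAs 0 were called higher and 11 lower in TGFβ-iTreg cells (84.6% lower, against 8.8% of all genes tested). In mTO-iTreg cells 1 was higher and 12 were lower (92.3% lower, against 14.5%). The riser was mtNd6, at 64.9, 110.2 and 64.4 on day 0, 76.2, 33.2 and 67.7 in TGFβ-iTreg, and 344, 380.3 and 276 in mTO-iTreg cells (2.08 ± 0.34, limma, adjusted p = 0.00039). Between the iTreg groups 2 of the 13 were higher in mTO-iTreg cells, mtNd6 and mtCo1, and 8 were lower. With quantile normalization the TGFβ-iTreg count was 2 higher and 5 lower, and mtCo2 turned from called lower to called higher (0.60 ± 0.20, adjusted p = 0.048). The ribosomal RNA mt-Rnr2, of the large subunit, was at 142316, 102598 and 67761 on day 0, 84271, 69103 and 57569 in TGFβ-iTreg, and 311620, 289133 and 309945 in mTO-iTreg cells. Only the mTO-iTreg libraries stood apart, 1.61 ± 0.21 above day 0 (adjusted p = 6.8e-05). The small-subunit RNA mt-Rnr1 was 1.16 ± 0.34 above day 0 there (adjusted p = 0.019), a call lost under 4 alternatives (adjusted p up to 0.095), among them without day 0 replicate 3, the library with the most myeloid marker RNA, and without mTO-iTreg replicate 1. In mTO-iTreg replicate 1 Rn45s took 1.03% of the counts, against 0.0616% to 0.241% in the other libraries. Its part in the result was not tested.

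Beside the 76 genes, the nuclear respiratory chain genes were followed (79 listed, 78 tested). In TGFβ-iTreg cells 30 were higher (38.5%, against 9.78% of all genes) and 0 lower (against 8.8%), with a median of 0.33. In mTO-iTreg cells 29 were higher (37.2%, against 19.4%) and 7 lower (8.97%, against 14.5%), with a median of 0.13. The cytosolic ribosomal protein genes (87 listed, 84 tested) had 4 higher (4.76%) and 22 lower (26.2%) in TGFβ-iTreg cells. In mTO-iTreg cells 22 were higher (26.2%) and 23 lower (27.4%), against the same shares of all genes. Their medians were -0.18 and -0.05, whose sign turned to 0.06 and 0.15 when the libraries were scaled to equal totals. Equal totals gave 53 higher and 0 lower, and 33 higher and 4 lower, for the respiratory chain. For the cytosolic ribosome they gave 13 higher and 9 lower, and 35 higher and 18 lower, and quantile normalization gave 14 higher and 5 lower, and 36 higher and 13 lower. No test between these lists and the 76 genes was made.

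**Figure D5:**
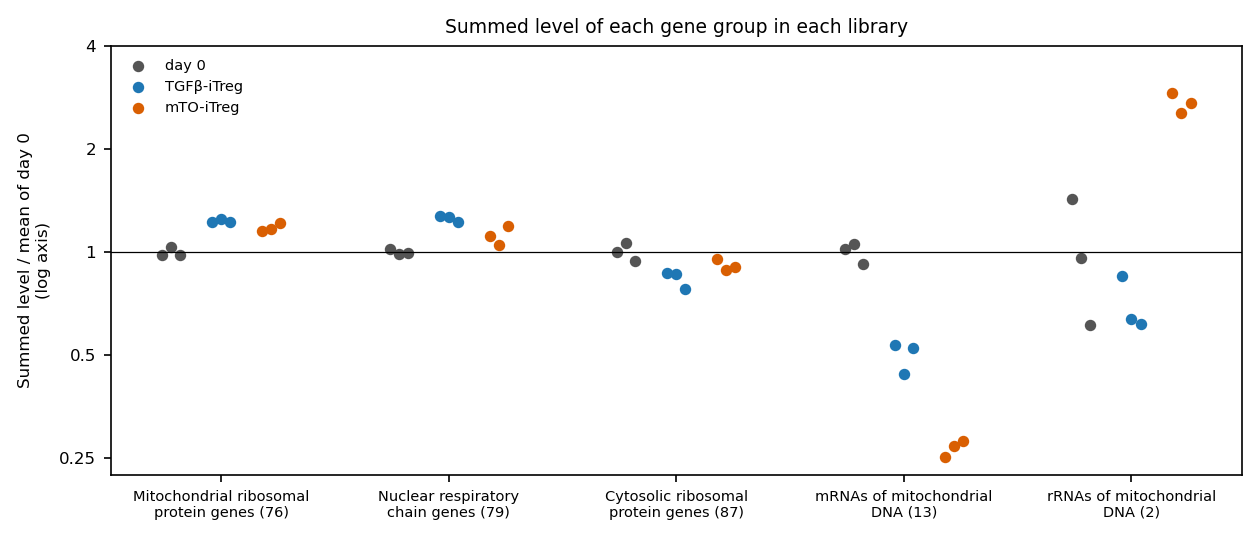
Summed normalized counts of 5 gene groups in each library, divided by the mean of day 0, on a log axis, 1 point per library. The mitochondrial ribosomal protein genes lie above 1 in all 6 iTreg libraries, the mRNAs of mitochondrial DNA lie at 0.44 to 0.534 in TGFβ-iTreg and 0.253 to 0.282 in mTO-iTreg cells, and the rRNAs lie at 2.54 to 2.91 in mTO-iTreg cells.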

How the data were processed

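Bulk RNA of 9 mouse libraries in 3 groups was read by a modified CELSeq method, per the labels' protocols. The submitters' processing notes list BWA, the mm10 build and DESeq2. Tool versions and strand handling were not given in the sources used here. Values as deposited by the authors are normalized counts with decimal commas, and each is a whole multiple of a step per library (100% within 0.1), from which the counts and depths were recovered. Precision is set by the step, 0.494 to 2.69 normalized counts.

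Tests used limma 3.58.1 in R 4.3.3 on log2(value + 1), 3 group means, a variance trend and 6 residual degrees of freedom, checked on simulated counts, over 10983 genes with at least 5 in at least 3 libraries. No pairing by replicate number was made, since same-number libraries had correlations of -0.05 to 0.06 after removal of group means. Named are up to 6 called members per direction and comparison with the largest changes, the 5 with the highest mean, Mrpl12, Mrpl44, Mrpl58, Mrps12 and Mrps36, and up to 4 called genes per pathway list and comparison. Further called members were added after their values were seen. The members, lists and marker genes were chosen with earlier results of these data known. Of the alternatives, limma-voom on recovered counts was added after seeing the data. Positions and exon overlaps came from GENCODE M21, and promoter windows and older symbols from RefSeq.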

Additional observations from a re-analysis of the deposited data

Results flagged for a closer look

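For 13 genes the estimated changes from day 0 had opposite signs in the 2 iTreg groups and the difference between them was called by limma. The sign against day 0 is an estimate only, since none of the 13 was called against day 0 in both groups. The mTO-iTreg minus TGFβ-iTreg difference in log2 was -1.21 for Mrps12, -1.18 for Mrpl20, -1.01 for Mrpl21, -0.92 for Mrpl3, -0.74 for each of Mrpl51, Mrpl9 and Mrps21, -0.68 for Mrpl53 and -0.58 for Mrps14. It was 0.92 for Mrpl16, 0.88 for Mrps18b, 0.71 for Mrpl17 and 0.70 for Mrps15. Mrpl20, Mrpl51, Mrpl9 and Mrps21 were called higher than on day 0 in TGFβ-iTreg cells, Mrps12, Mrpl21 and Mrps14 were called lower in mTO-iTreg cells, and Mrpl17 was called higher in mTO-iTreg cells. Mrpl3, Mrpl53, Mrpl16, Mrps18b and Mrps15 were called against day 0 in neither group.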

How the results depend on the processing

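Percents in brackets are shares of all genes tested under the same setting. The genes called higher in TGFβ-iTreg cells than on day 0 were 12 as reported. They were 26 with libraries scaled to equal totals (16.3%) and 19 with equal totals outside mitochondrial genes and Rn45s (12.5%). With no variance trend they were 6, and without the shallowest day 0 and TGFβ-iTreg libraries also 6. Leaving out 1 library gave 7 to 13 (6.28% to 9.52%), with 7 without day 0 replicate 1 and without each TGFβ-iTreg library. In mTO-iTreg cells against day 0, equal totals gave 23 higher (24.9%) and 2 lower (10.5%). Leaving out 1 library gave 10 to 13 higher (15.2% to 19.5%). Lower genes were 3 outside mitochondrial genes and Rn45s (12.1%) and 3 without the shallowest pair. They were 3 to 6 leaving out 1 library (12% to 14.6%), with 3 without mTO-iTreg replicate 1. Between the iTreg groups, 3 were higher without the shallowest pair and 3 to 8 leaving out 1 library (10.4% to 16.3%). The count was 3 without TGFβ-iTreg replicate 1 or 3 or mTO-iTreg replicate 2. Lower genes were 8 with no variance trend and 9 to 13 leaving out 1 library (8.73% to 12.4%). For no variance trend and for the shallowest pair the shares of all genes are not given here. The median change of the 76 genes was 0.227 to 0.526, 0.073 to 0.385 and -0.175 to -0.047 in the 3 comparisons over all alternatives, with 0.526 and 0.385 under equal totals. Equal totals moved the median of all genes to 0.221 and 0.309 against day 0, and quantile normalization moved that of mTO-iTreg cells to -0.07; the 76 genes stood 0.294 to 0.34 above that median in TGFβ-iTreg cells under every scaling and tool, 0.0707 to 0.169 above it in mTO-iTreg cells, and -0.221 to -0.135 from it between the iTreg groups. The upward share of all calls went from 52.6% to 75.4% and from 57.1% to 70.4% under equal totals, and to 65.6% in TGFβ-iTreg cells outside mitochondrial genes and Rn45s.

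With the replicate number as a block, 12, 12 and 5 genes were higher and 0, 5 and 13 lower in the 3 comparisons. Shares of all genes under this setting are not given here. The labels do not say that equal numbers mark a shared source, and the samples were not treated as pairs. The planned count-model tests were not run, since an automated check of the unit could not read the decimal commas. The recovered counts were used in limma-voom, which was added in their place. No called member and none of the members' counts or medians changed direction under an alternative. Beyond the members, the median of the cytosolic ribosomal protein genes changed sign under equal totals and quantile normalization, and mtCo2 in TGFβ-iTreg cells was called higher under quantile normalization; the cause was not tested. Depth limits the rarely read genes: the smallest count of a member in a library was 11.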
